A study of Mus musculus with 6 samples.

Results

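The genes described here are the matrix metalloproteinases (MMPs), the ADAM, ADAMTS and ADAMTS-like proteins and their tissue inhibitors, the TIMPs. They were taken from the deposited expression table by symbol alone: Mmp, Adam or Adamts followed by a number, Adamtsl followed by 1 digit, and Timp1 to Timp4. This gave 84 of the 24972 listed gene symbols, namely 23 MMPs, 33 ADAMs, 19 ADAMTSs, 5 ADAMTS-like genes and 4 TIMPs. Only genes that reached a normalized count of 10 in 3 or more of the 6 libraries were tested, and 54 of the 84 members and 14456 of all listed genes did so.

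The RNA-Seq compared isolated lung endothelial cells (iLECs) of control mice with those of mice that lose Atp6ap2 in endothelial cells (Atp6ap2 iECKO). ATP6AP2, the (pro)renin receptor, is also an accessory protein of the vacuolar proton pump. Lungs were taken at postnatal day 7 and CD31+ cells were pulled from the digested tissue on antibody-coated magnetic beads, with 3 libraries per genotype. Both genotypes carried the floxed allele, Atp6ap2 fl/Y by their labels, and both were given tamoxifen (100 μg) on postnatal days 1, 2 and 3. The Atp6ap2 iECKO mice also carried Cdh5-CreERT2, which expresses a tamoxifen-activated Cre from the promoter of the VE-cadherin gene, Cdh5. The controls had no Cre, so Cre activity and the loss of Atp6ap2 cannot be told apart here. The strain is C57BL/6 in the labels and a mixed CD1 and C57BL/6 background in the study's methods, and neither says whether a library held the lungs of 1 pup or of several.

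Values are normalized counts, that is, estimated counts already divided by a factor for each library. Summed over all genes they came to 28725799, 27813574 and 26359661 in control replicates 1 to 3 and to 27221581, 27104145 and 26243878 in Atp6ap2 iECKO replicates 1 to 3; the number of reads behind them is unknown. Atp6ap2 itself was at 7490, 5815 and 5681 in control replicates 1 to 3 and at 4220, 2336 and 1982 in Atp6ap2 iECKO replicates 1 to 3. The libraries of the genotypes did not overlap, and Atp6ap2 iECKO replicate 1 kept the most of the transcript. The log2 fold change was -1.22 (SE 0.26, adjusted P = 0.0306 by limma), and an exact two-sided permutation test gave P = 0.1, the smallest that 3 libraries against 3 allow. Leaving out 1 library at a time, any but Atp6ap2 iECKO replicate 1 took the adjusted P value past the threshold, to at most 0.104, with log2 fold changes of -1.54 to -0.999.

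Xist, the noncoding RNA of the inactive X chromosome, was high in 4 libraries although all 6 are labelled fl/Y, the genotype of males. The study's text also places fl/fl females in both genotypes and does not give the sex of a library. Xist was at 37704 and 44402 in control replicates 1 and 2 and at 39442 and 47487 in Atp6ap2 iECKO replicates 1 and 3, but at 31.7 in control replicate 3 and 19.3 in Atp6ap2 iECKO replicate 2. Each genotype therefore held 2 libraries with Xist and 1 without it, and log2 fold changes of some members below are also given within these strata.

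MMPs are zinc-dependent endopeptidases that are secreted or held at the cell surface and cut collagens and other matrix proteins, most of them as proenzymes whose prodomain must first be removed. ADAMs are membrane-anchored relatives, several of which shed the extracellular parts of growth factors, cytokines and adhesion molecules. ADAMTSs are secreted, bind the matrix through thrombospondin repeats and cut proteoglycans, procollagens and other matrix proteins, whereas ADAMTS-like proteins have the repeats but no protease domain. TIMPs bind the active site of these enzymes and block it. In growing vessels such enzymes are known for clearing basement membrane ahead of a sprout and for releasing matrix-bound factors.

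Members of these families fell more often than they rose in iLECs of Atp6ap2 iECKO mice. Among 54 tested, 15 fell (27.8%), against 4.97% of all tested genes, and 1 rose (1.85%), against 3.28% of all tested genes, at an adjusted P value below 0.05 in limma. The genes that fell were Mmp2, Mmp14, Mmp28, Adam9, Adam33, Adamts2, Adamts4, Adamts8, Adamts10, Adamts12, Adamts15, Adamts17, Adamts19, Adamtsl3 and Timp2, and the gene that rose was Mmp15. Over the tested members the log2 fold change had a median of -0.31, and over all tested genes one of 0.01. Values of the genotypes did not overlap for 21 members that were lower and 6 that were higher in Atp6ap2 iECKO libraries, where 15.0% and 14.7% of all tested genes were lower and higher without overlap. Of these 21, Adamts13 was tested only because of its controls, as all its Atp6ap2 iECKO values were below 10, so it had to be lower. Of the 15 that fell, Adam33 reached 10 in the 3 controls and only 1 Atp6ap2 iECKO library. It too was tested because of its controls, a selection that favours a fall.

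The ADAMTS family held most of the falls. Among ADAMTSs 8 of 17 tested genes fell and none rose (15 of 17, Adamts13 included, were lower at any P value), with a median log2 fold change of -0.94. Among MMPs 3 of 15 fell and 1 rose, with a median of -0.52, which was -0.205 without Atp6ap2 iECKO replicate 2. Among ADAMs 2 of 14 fell and none rose, and the median of 0.11 came to 0.059 without Atp6ap2 iECKO replicate 2 and 0.029 without Atp6ap2 iECKO replicate 3. In the smaller families 1 of 5 ADAMTS-like genes (median -0.25) and 1 of 3 TIMPs (median 0.42) fell and none rose. The ADAMTS-like median rested on single libraries, at -0.446 without the first Atp6ap2 iECKO library, 0.041 without the second and -0.041 without the third control. At an unadjusted P value below 0.05 there were 10 ADAMTSs, 7 MMPs, 4 ADAMs, 2 ADAMTS-like genes and 3 TIMPs, against 23.9% of all tested genes. Whether the families differ from one another was not tested.

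**Figure D1:**
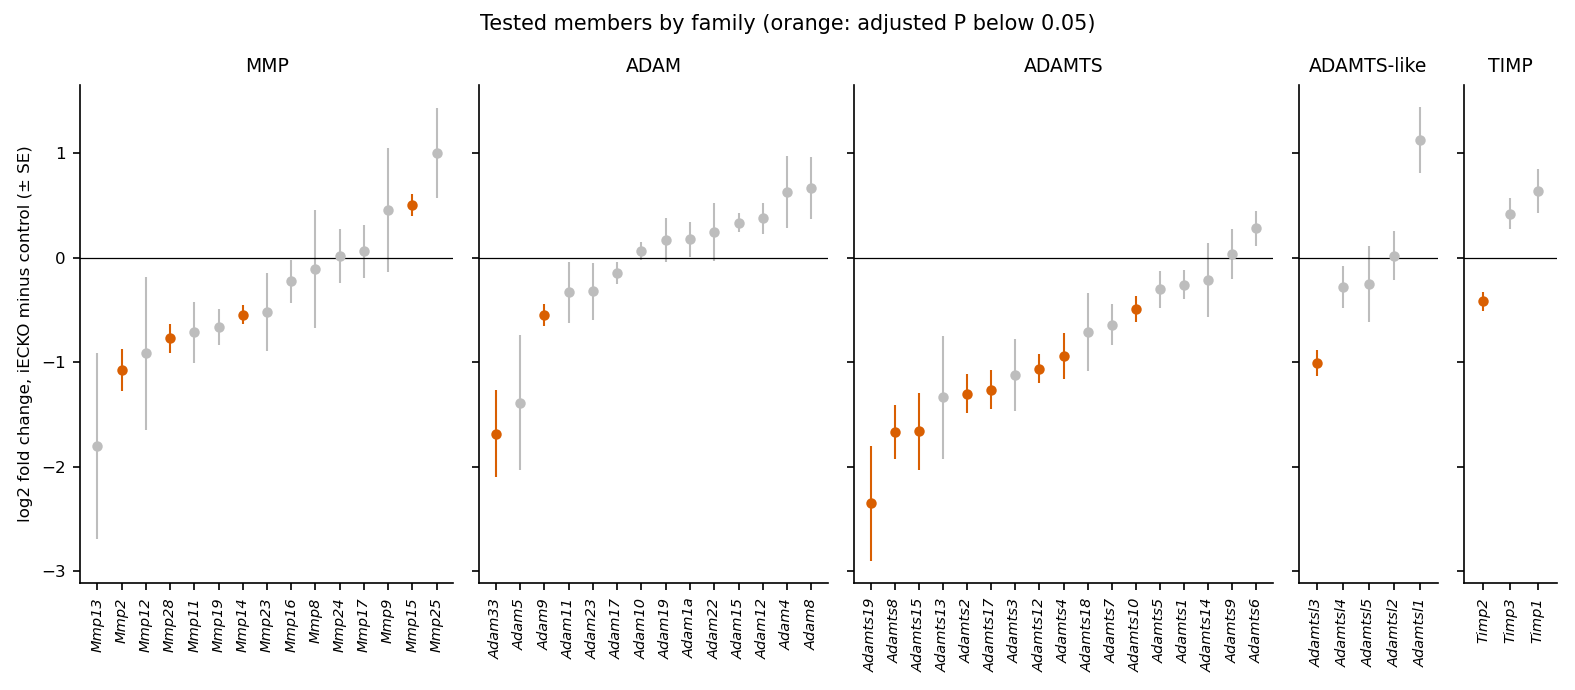
Log2 fold change of the normalized count (Atp6ap2 iECKO minus control, vertical axis) for each of the 54 tested members, by family; points are limma estimates from 3 libraries per genotype and bars are ± SE. Orange points, at an adjusted P value below 0.05, lie below 0 except for Mmp15, and 8 of the 16 are ADAMTSs.

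The calls depended on single libraries. Of the 16 called members 10, 10 and 5 passed the threshold without control replicates 1, 2 and 3, and 14, 5 and 4 without Atp6ap2 iECKO replicates 1, 2 and 3. Adamts2, Adamts12, Adamts17 and Adamtsl3 passed in all 6 fits. On all 6 libraries but without the mean-variance trend, 5 of the 16 passed in limma. The calls lost there included Adamts17 (adjusted P = 0.0514), Mmp2, Mmp14, Mmp15 and Mmp28. With a covariate for Xist 11 of the 16 passed. No called member passed the threshold in limma on the 4 libraries with Xist, where 1 gene of the whole table did and 19 members had an unadjusted P value below 0.05, as did 15.5% of all tested genes. The values of all 16 did not overlap between genotypes, so their direction in any such subset was fixed and is no sign of stability.

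Levels per kb of exon, which allow genes to be compared, spanned more than 3 orders of magnitude. Adamts1, a proteoglycan-cleaving enzyme also known as an inhibitor of angiogenesis, was the most abundant member, with a mean of 12247 normalized counts per kb in control and 10174 in Atp6ap2 iECKO libraries. It made up 82.1% to 86.9% of the ADAMTS sum per kb in the 6 libraries. In the order of the controls Timp3 followed at 3337 and 4419 per kb, then Timp2 at 2917 and 2187, Mmp14 at 1873 and 1287 and Mmp2 at 1815 and 890. The ADAMs were led by Adam15 (1265 and 1591 per kb) and Adam10 (1272 and 1322 per kb). In Atp6ap2 iECKO libraries both of these and Mmp15 (972 per kb) were above Mmp2. The members that fell by at least 1 on the log2 scale were less abundant apart from Mmp2: Adamts17 had 366 per kb in controls, Adamts2 186, and Adamts19 and Adam33 only 7.15 and 5.85.

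**Figure D2:**
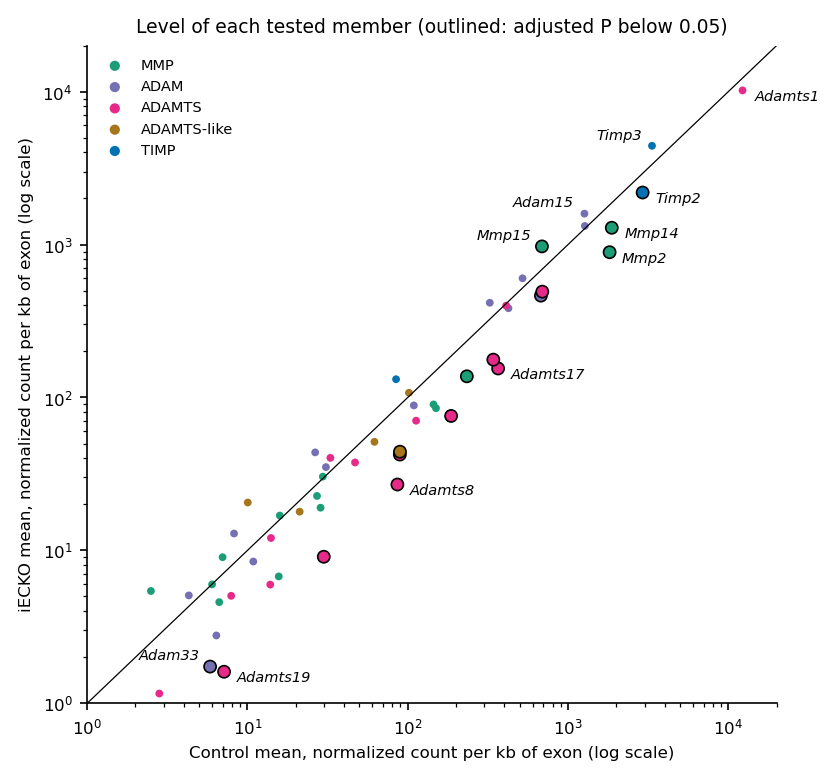
Mean normalized count per kb of exon in control (horizontal) and Atp6ap2 iECKO libraries (vertical), both on log scales, for the 54 tested members, coloured by family; the line marks equal levels and outlined points passed the test. Outlined points lie below the line except Mmp15, and the abundant Adamts1, Timp3 and Adam15 lie near the line and are not outlined.

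Among the gelatinases, which cut denatured collagen and basement membrane collagen, Mmp2 (chr8:92827291-92853420) fell. Its normalized counts were 5666, 6308 and 6381 in control replicates 1 to 3 and 4142, 2573 and 2290 in Atp6ap2 iECKO replicates 1 to 3. All 3 Atp6ap2 iECKO libraries were below every control library, with replicate 1 nearest to the controls. On the log2 scale the change was -1.07 (SE 0.20, adjusted P = 0.0215 by limma), with -1.33 to -0.90 over the fits without 1 library, in which the adjusted P value reached 0.0815. The other gelatinase, Mmp9, typical of inflammatory cells, was at 24.8 ± 14.5 in controls and 32.0 ± 16.2 in Atp6ap2 iECKO libraries (SD, n = 3) and did not pass (log2 fold change 0.45, adjusted P = 0.697 by limma).

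The membrane-type MMPs split in direction. Mmp14 (MT1-MMP, chr14:54431612-54445364), which cuts fibrillar collagen at the cell surface and activates pro-MMP2 together with TIMP2, had normalized counts of 10772, 10881 and 11833 in controls and 8418, 7629 and 6960 in Atp6ap2 iECKO libraries. The 3 Atp6ap2 iECKO values lay below all controls and close together. This was a log2 fold change of -0.54 (SE 0.095, adjusted P = 0.0175 by limma). Mmp15 (MT2-MMP, chr8:95352268-95375080), a collagenolytic relative, was the member that rose, from 3279, 3935 and 3907 in controls to 4762, 5708 and 5264 in Atp6ap2 iECKO libraries. Its lowest Atp6ap2 iECKO value, in replicate 1, was above every control. It rose by a log2 fold change of 0.50 (SE 0.10, adjusted P = 0.0293 by limma). The other 4 membrane-type genes, Mmp16, Mmp17, Mmp24 and Mmp25, did not pass, at log2 fold changes of -0.23, 0.06, 0.02 and 1.00. Mmp25, a protease of leukocytes, was low throughout, at 11.4 to 16.5 in controls and 20.5 to 43.6 in Atp6ap2 iECKO libraries.

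Mmp28 (epilysin, chr11:83440768-83463071), a secreted enzyme known from skin and lung epithelium, fell from 843, 865 and 1006 in controls to 587, 569 and 442 in Atp6ap2 iECKO libraries. No Atp6ap2 iECKO library reached the lowest control. limma gave a log2 fold change of -0.77 (SE 0.14, adjusted P = 0.0195). Of its exon bases 12% overlap 1700020L24Rik on the opposite strand, and as the library kit does not mark strand, reads of this pair cannot be told apart. The calls of Mmp2, Mmp14, Mmp15 and Mmp28 were lost when the third control, the second Atp6ap2 iECKO or the third Atp6ap2 iECKO library was left out, that of Mmp15 also without control replicate 1 and that of Mmp2 also without control replicate 2. Their log2 fold changes in those 6 fits were -0.61 to -0.48 for Mmp14, 0.42 to 0.57 for Mmp15 and -0.85 to -0.64 for Mmp28, with adjusted P values of at most 0.0761, 0.112 and 0.0734.

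No collagenase or stromelysin passed. The collagenase Mmp13 was at 42.7, 32.9 and 50.1 in controls and at 21.1, 1.49 and 31.6 in Atp6ap2 iECKO libraries. These do not overlap, but Atp6ap2 iECKO replicate 2 stands far below the others, and the log2 fold change of -1.80 had an SE of 0.89 (adjusted P = 0.267 by limma) and was -0.66 without that library. The stromelysin-like Mmp11 was lower without overlap (log2 fold change -0.72, adjusted P = 0.187), as was Mmp19, a basement membrane-cleaving enzyme (log2 fold change -0.66, adjusted P = 0.0571). For Mmp11, control replicate 3 stood apart at 640, against 266 and 344 in the other controls and 222 to 245 in Atp6ap2 iECKO libraries. Of the exon bases of Mmp19, 22.3% overlap Tmem198b on the opposite strand (mean value 670), so their reads cannot be told apart if strand was not used in counting. The neutrophil collagenase Mmp8 was at 5.94 to 21.0 and the macrophage elastase Mmp12 at 7.67 to 69.3 over the 6 libraries, both with overlapping genotypes.

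Most of the Mmp genes that cluster on chromosome 9 were at or near 0 in these iLECs, whereas most tested Mmp genes lie elsewhere. Of the 10 cluster genes, Mmp8, Mmp12 and Mmp13 were tested, and Mmp1a, Mmp1b, Mmp3, Mmp7, Mmp10, Mmp20 and Mmp27 had normalized counts of at most 4.69. The promoters of 53 members were found in the RefSeq windows of GRCm38.p6, which run from 250 bases before to 50 bases after a transcription start. These windows were searched on both strands for TGANTCA (the AP-1 site), TATAAA (the TATA box) and GGGCGG (the GC box). TGANTCA was in 8 of 12 windows of the cluster genes, TATAAA in 9 and both together in 8, while GGGCGG was in 0. Only 8 of the other Mmp genes had a window, and genes such as Mmp2 were not searched. In their 9 windows TGANTCA was in 0, TATAAA in 1 and GGGCGG in 7. Over all 32851 promoter windows the shares were 7.81% for TGANTCA, 13.6% for TATAAA, 35.7% for GGGCGG and 1.54% for TGANTCA with TATAAA. Of the called members 8 had a window, of which 6 held GGGCGG and 0 held either other motif. A match of letters describes the sequence and does not show a bound factor.

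The 100 bases before the start of 2 cluster genes that are low or near 0 here (Mmp13 and Mmp3) and of 4 called members (Mmp14, Mmp15, Mmp28 and Timp2) are shown 5′ to 3′ on the strand of the gene, with matches in capitals. They lie at chr9:7272414-7272513 (Mmp13), chr9:7445722-7445821 (Mmp3), chr14:54431498-54431597 (Mmp14), chr8:95352196-95352295 (Mmp15), chr11:83463041-83463140 (Mmp28, minus strand) and chr11:118355412-118355511 (Timp2, minus strand) of GRCm38.p6.
Mmp13: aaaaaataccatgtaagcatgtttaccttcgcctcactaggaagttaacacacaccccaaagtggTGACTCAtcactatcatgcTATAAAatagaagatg
Mmp3: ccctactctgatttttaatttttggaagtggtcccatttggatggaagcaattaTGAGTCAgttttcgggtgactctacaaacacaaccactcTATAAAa
Mmp14: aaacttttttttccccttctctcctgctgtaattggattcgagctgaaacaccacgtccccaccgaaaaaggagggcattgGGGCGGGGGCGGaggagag
Mmp15: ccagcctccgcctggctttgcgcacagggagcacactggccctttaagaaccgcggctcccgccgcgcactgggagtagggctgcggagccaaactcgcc
Mmp28: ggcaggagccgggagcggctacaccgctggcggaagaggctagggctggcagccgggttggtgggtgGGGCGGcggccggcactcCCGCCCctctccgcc
Timp2: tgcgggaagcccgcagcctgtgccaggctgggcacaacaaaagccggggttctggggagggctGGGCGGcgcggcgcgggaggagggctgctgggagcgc
In Mmp13 and Mmp3 the capitals are TGANTCA followed by TATAAA. In Mmp14, Mmp28 and Timp2 they are GGGCGG or its reverse complement. The stretch of Mmp15 holds no match, although its full window holds GGGCGG. Of the called members with a window, Adamts12 and Adamts17, not shown here, held none of the motifs in it.

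The ADAMTS proteinases that cut proteoglycans such as versican and aggrecan included 3 genes that fell. Adamts8 had normalized counts of 286, 435 and 471 in controls and 161, 115 and 96.7 in Atp6ap2 iECKO libraries, a log2 fold change of -1.67 (SE 0.26, adjusted P = 0.0133 by limma). Adamts15 had 177, 314 and 439 against 129, 86.4 and 67.7, a log2 fold change of -1.66 (SE 0.36, adjusted P = 0.0338 by limma). For both, the highest Atp6ap2 iECKO value and the lowest control value came from the replicates numbered 1. The genes are neighbours on chromosome 9, at chr9:30899155-30922452 (Adamts15, minus strand) and chr9:30942562-30963838 (Adamts8, plus strand), and 10.6% of the exon bases of Adamts8 overlap Gm29724 on the opposite strand.

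Adamts4, an aggrecanase, fell from 1933, 1804 and 1194 to 646, 972 and 932 (log2 fold change -0.94, SE 0.22, adjusted P = 0.0387 by limma). Here Atp6ap2 iECKO replicate 1 was the lowest library, unlike for most members. Adamts1 and Adamts5, which lie side by side on chromosome 16, and Adamts9, which also cuts versican, did not pass. Adamts1 was at 65282, 73503 and 56011 in controls and 57384, 52248 and 52193 in Atp6ap2 iECKO libraries (log2 fold change -0.26, 95% interval -0.57 to 0.05, adjusted P = 0.294, and -0.362 to -0.166 over the fits without 1 library). Adamts9 was at 4107 to 8941 in controls and 5856 to 6084 in Atp6ap2 iECKO libraries (log2 fold change 0.03, 95% interval -0.53 to 0.59, and -0.226 to 0.335 when single libraries were left out).

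Among the procollagen N-proteinases, which trim the amino-terminal propeptide of fibrillar procollagens, Adamts2 (chr11:50602084-50807573) fell from 1381, 2015 and 1823 in controls to 860, 681 and 580 in Atp6ap2 iECKO libraries. All 3 Atp6ap2 iECKO values were below all controls. Adamts2 thus had a log2 fold change of -1.30 (SE 0.18, adjusted P = 0.0104 by limma). Adamts3, which also takes part in the processing of VEGF-C, was far less abundant, at 50.5, 110 and 65.9 against 28.2, 37.5 and 31.7, lower without overlap but short of the threshold (log2 fold change -1.13, adjusted P = 0.0912). Adamts14 overlapped between genotypes (log2 fold change -0.22).

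Adamts12 (chr15:11064790-11349231), known for cutting cartilage oligomeric matrix protein, fell from 880, 1175 and 869 to 480, 467 and 440. The 3 Atp6ap2 iECKO values lay within a narrow range below all controls. In limma the log2 fold change came to -1.06 (SE 0.14, adjusted P = 0.00921). Its closest relative Adamts7 was lower without overlap (log2 fold change -0.64, adjusted P = 0.0854). Adamts13, which cuts von Willebrand factor, was low in every library, at 13.6 to 14.1 in controls, just above the minimum for testing, and 1.86 to 9.19 in Atp6ap2 iECKO libraries, all below it (log2 fold change -1.34, adjusted P = 0.215, and -0.81 without Atp6ap2 iECKO replicate 3).

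The remaining ADAMTS genes that fell were Adamts10, Adamts17 and Adamts19. ADAMTS10 and ADAMTS17 are linked to the fibrillin microfibrils of the matrix. Adamts17 (chr7:66839735-67153171) fell from 2547, 3319 and 2662 to 1561, 1087 and 955 (log2 fold change -1.26, SE 0.18, adjusted P = 0.0113 by limma). Adamts10 (chr17:33524204-33553782) fell from 5761, 4941 and 6398 to 4624, 3730 and 3820 (log2 fold change -0.49, adjusted P = 0.0498 by limma), at the edge of the threshold. For both genes Atp6ap2 iECKO replicate 1 was the library nearest to the controls. Adamts19 had the lowest log2 fold change of all tested members, -2.35 (SE 0.55, adjusted P = 0.0398 by limma), at 78.0, 106 and 117 in controls and 39.4, 21.2 and 7.41 in Atp6ap2 iECKO libraries. Adamts18 and Adamts6 did not pass, at -0.71 and 0.28.

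Among these 8 genes, Adamts2, Adamts12 and Adamts17 kept their calls when any 1 library was left out. Adamts8 lost its call without control replicate 3 or Atp6ap2 iECKO replicate 3 (adjusted P values up to 0.0540), and the other 4 each lost theirs in 4 or 5 of the 6 fits. Adamts15 kept its call without control replicate 1 or Atp6ap2 iECKO replicate 1 (adjusted P values up to 0.117 in the other fits), and Adamts10 without control replicate 2 or Atp6ap2 iECKO replicate 1 (up to 0.171). Adamts19 kept its call without Atp6ap2 iECKO replicate 1 alone (up to 0.128) and Adamts4 without control replicate 3 alone (up to 0.104). With a covariate for Xist, Adamts4, Adamts10 and Adamts19 lost their calls (adjusted P = 0.0543, 0.0781 and 0.0571 by limma). Without Atp6ap2 iECKO replicate 3 the log2 fold change of Adamts19 was -1.74.

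**Figure D3:**
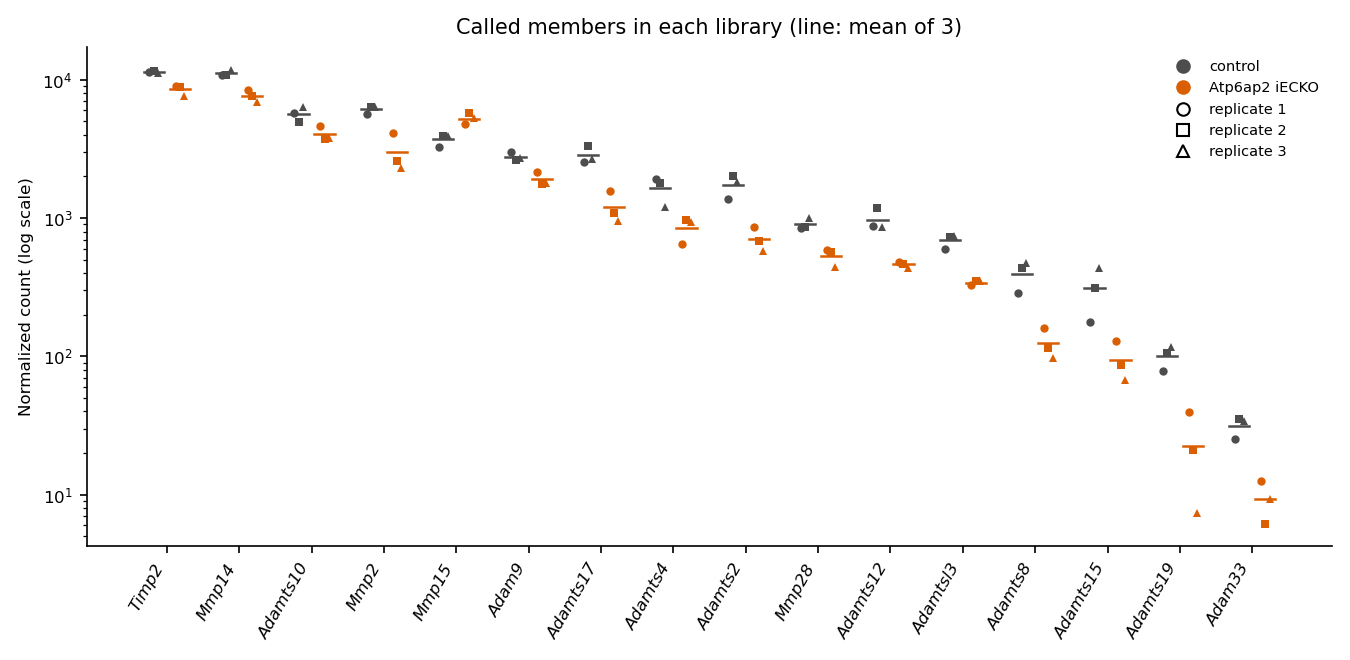
Normalized count (log scale, vertical) of the 16 called members in each of the 6 libraries, ordered by mean; grey is control, orange is Atp6ap2 iECKO, circles, squares and triangles are replicates 1, 2 and 3, and lines are means of 3. No gene shown overlaps between genotypes, Mmp15 alone is higher in Atp6ap2 iECKO libraries, and Atp6ap2 iECKO replicate 1 is the highest of its genotype for 13 of the 15 genes that fell.

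In the ADAMTS-like family, whose members bind fibrillin and other matrix proteins, Adamtsl3 (chr7:82335694-82614450) fell from 598, 731 and 748 to 327, 350 and 350. The Atp6ap2 iECKO values were nearly equal and lay below every control. Its log2 fold change was -1.01 (SE 0.13, adjusted P = 0.00883 by limma). Adamtsl1 was higher without overlap, at 198, 81.7 and 106 in controls and 226, 261 and 301 in Atp6ap2 iECKO libraries, but did not pass (log2 fold change 1.12, SE 0.32, adjusted P = 0.0708 by limma). Without control replicate 1, its highest control, it did, with a log2 fold change of 1.48 and an adjusted P value of 0.0141. Adamtsl2, the most abundant of the family per kb, Adamtsl4 and Adamtsl5 overlapped between genotypes, at log2 fold changes of 0.02, -0.28 and -0.25. These depended on single libraries, with ranges over the fits without 1 library of -0.278 to 0.220, -0.446 to -0.147 and -0.510 to 0.041.

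Of 8 tested ADAMs with an active protease domain 2 fell, Adam9 and Adam33, and 0 rose. Adam10 and Adam17, the main sheddases of Notch receptors and of TNF and EGF receptor ligands, were at 5832 to 6864 and 2730 to 3402 in controls and at 6375 to 6735 and 2576 to 3015 in Atp6ap2 iECKO libraries. Their 95% intervals of the log2 fold change were -0.14 to 0.26 for Adam10 and -0.39 to 0.10 for Adam17. Adam9 (chr8:24949611-25016927), another sheddase, fell from 3014, 2620 and 2722 to 2162, 1761 and 1793 (log2 fold change -0.55, SE 0.10, adjusted P = 0.0224 by limma). No Atp6ap2 iECKO library reached a control. It did not pass without the third control, the second Atp6ap2 iECKO or the third Atp6ap2 iECKO library (adjusted P values up to 0.0932).

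Adam33, a protease gene of mesenchymal cells of the airway wall, was at 25.4, 35.5 and 33.9 in controls and 12.6, 6.18 and 9.31 in Atp6ap2 iECKO libraries. It fell with a log2 fold change of -1.68 (SE 0.41, adjusted P = 0.0466 by limma), on values that are low in every library, and lost its call in each of the 6 fits without 1 library (adjusted P values of 0.0540 to 0.145). With no filter on low values its adjusted P value was 0.0599 in limma, and with a minimum of 50 it was not tested. Adam15, an ADAM of endothelial cell contacts and on the mean of all 6 libraries the most abundant ADAM per kb (in controls Adam10 was level with it), was higher without overlap, at 8345, 7521 and 7449 in controls and 10575, 9190 and 9569 in Atp6ap2 iECKO libraries, and missed the threshold (log2 fold change 0.33, SE 0.090, adjusted P = 0.0624 by limma). Adam15 did pass in limma with the replicate block (adjusted P = 0.0349), after scaling to library totals (0.0286) and with sample quality weights (0.045). Of the exon bases of Adam15, 20.6% overlap 4731419I09Rik on the opposite strand. Adam19, which takes part in heart valve formation, was at 3378 to 4100 in controls and 2892 to 5292 in Atp6ap2 iECKO libraries (log2 fold change 0.17, adjusted P = 0.678, and -0.008 to 0.428 over the fits without 1 library). The ADAMs without protease activity, Adam11, Adam22 and Adam23, overlapped between genotypes, at log2 fold changes of -0.33, 0.25 and -0.32. The value of Adam23 leaned on Atp6ap2 iECKO replicate 2, at 1010 against 1824 and 1930 in replicates 1 and 3 and 1475 to 2507 in controls.

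The TIMPs did not move together. Timp2 (chr11:118301069-118355740), the inhibitor that also helps MMP14 activate pro-MMP2, fell from 11395, 11573 and 11124 to 9094, 8810 and 7659. The controls were close to one another and all 3 Atp6ap2 iECKO values were lower. This came to a log2 fold change of -0.42 (SE 0.090, adjusted P = 0.0312 by limma), with -0.47 to -0.34 over the fits without 1 library, of which only the one without Atp6ap2 iECKO replicate 1 kept the call. On all 6 libraries Timp2 missed the threshold in limma with a covariate for Xist (adjusted P = 0.0607) and without the mean-variance trend (0.0861). Timp3, which binds the matrix and inhibits several ADAMs and ADAMTSs as well as MMPs, was at 33048, 25527 and 22953 in controls and 38288, 32287 and 37397 in Atp6ap2 iECKO libraries. Control replicate 1 lay above Atp6ap2 iECKO replicate 2, so the genotypes overlapped. limma gave a log2 fold change of 0.42 (SE 0.15, adjusted P = 0.139), and 0.57 when control replicate 1 was left out (adjusted P = 0.0394). Of the exon bases of Timp3, 21.3% overlap Syn3 on the opposite strand, whose mean was 52.1. Timp1, a widely induced inhibitor, was low, at 67.9, 72.3 and 85.1 against 111, 124 and 116, higher without overlap but not past the threshold (log2 fold change 0.64, SE 0.21, adjusted P = 0.106 by limma). Timp4 had at most 4.69.

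Mmp2, Mmp14 and Timp2, whose products meet in the activation of pro-MMP2, thus all fell, while the membrane-type gene Mmp15 rose. None of these calls held in every fit without 1 library, and all were lost without the mean-variance trend. Taken from the means of log2 values, controls were 2.11-fold above Atp6ap2 iECKO libraries for Mmp2, 1.46-fold for Mmp14 and 1.34-fold for Timp2. Atp6ap2 iECKO replicate 3 was the lowest library for all 3 genes and replicate 1 the highest of its genotype, below every control.

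Per kb of exon, the MMPs summed to 4673, 5086 and 5376 in controls and 3982, 3532 and 3242 in Atp6ap2 iECKO libraries, without overlap. The ADAMTS sum was 14843, 16350 and 12866 against 12479, 11371 and 11323, which mostly follows Adamts1. The sums of the TIMPs (5769 to 7059 against 6366 to 7161) and of the ADAMs (4386 to 5019 against 4889 to 5106) overlapped between genotypes.

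The 30 members that were not tested reached at most 7.57 in any library, and 14 of them were at 0 in all 6. They were 8 MMPs, 19 ADAMs, 2 ADAMTSs (Adamts16 and Adamts20) and Timp4. Many of these ADAMs, such as Adam2, Adam3 and Adam18, are known from sperm.

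Lists of genes that work with these families were examined in the same fit. Of the plasminogen activation system, which activates several pro-MMPs, 2 of 9 tested genes fell and 0 rose, both of them protease inhibitors. Serpine2 fell from 2818, 4031 and 3488 to 1357, 1549 and 1318 (log2 fold change -1.28, adjusted P = 0.00731). Serping1 had a log2 fold change of -1.60 (adjusted P = 0.00883). The activators Plat and Plau and the receptor Plaur did not pass, at log2 fold changes of 0.34, 0.18 and 0.25. The value of Plau leaned on control replicate 3, at 1018 against 1672 and 1615 in the other controls and 1504 to 1765 in Atp6ap2 iECKO libraries.

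Among the astacin proteinases that remove the carboxy-terminal propeptide of procollagens, and their enhancers, 2 of 4 tested genes fell and 0 rose. These were the enhancers Pcolce (log2 fold change -1.40, adjusted P = 0.0103) and Pcolce2 (-1.48, adjusted P = 0.0104), while the enzyme Bmp1 was at 3987, 4594 and 5041 in controls and 3467, 3622 and 3324 in Atp6ap2 iECKO libraries (log2 fold change -0.38, adjusted P = 0.0559). Of 9 tested regulators of metalloproteinases 3 fell and 0 rose. They were Reck, a membrane-anchored inhibitor of MMPs (log2 fold change -0.78, adjusted P = 0.0104), Lrp1, an endocytic receptor that clears them (-1.04, adjusted P = 0.0287), and Cd44, which docks them at the surface (-0.50, adjusted P = 0.0475).

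Of 8 tested partners of ADAM10 and ADAM17, only the tetraspanin Tspan17 fell (log2 fold change -0.60, adjusted P = 0.0292) and 0 rose, and the list's median was -0.03. Of 4 proprotein convertases, which cut the prodomains of membrane-type MMPs and ADAMs, Pcsk6 rose (log2 fold change 0.58, adjusted P = 0.0289). Pcsk5 was at 10402, 7106 and 6968 in controls and at 6201, 4259 and 3916 in Atp6ap2 iECKO libraries, lower without overlap, and did not pass (log2 fold change -0.77, adjusted P = 0.0612). Furin was at 5487 to 7038 in controls and 5381 to 6022 in Atp6ap2 iECKO libraries and did not pass (log2 fold change -0.07).

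Some transcripts of known substrates fell as well. Of 12 tested ADAMTS substrates 5 fell and 0 rose: Vcan, the proteoglycan versican (log2 fold change -1.41, adjusted P = 0.0215), the procollagens Col1a1, Col1a2 and Col3a1 (-1.62, -1.60 and -1.56) and the microfibril gene Fbn1 (-0.83). Of 19 tested genes whose proteins are shed by ADAM10 or ADAM17, 3 fell and 0 rose. These were Cdh2, the N-cadherin gene (-1.50, adjusted P = 0.00570), Efnb2, the ephrin gene of arterial endothelium (-0.74, adjusted P = 0.0256), and Hbegf, the gene of an EGF receptor ligand (-0.67, adjusted P = 0.0221). Of 9 tested matrix proteinases of other classes 0 fell and the serine protease gene Prss23 rose (0.43, adjusted P = 0.0212). Of these 9, 6 were lower and 1 was higher without overlap, against 15.0% and 14.7% of all tested genes. For each list, the counts of calls in both directions together stand beside 8.25% of all tested genes called. At an unadjusted P value below 0.05 the 8 lists, in the order given, held 2, 4, 4, 2, 2, 5, 7 and 4 genes, against 23.9% of all tested genes. Col1a1, Col1a2 and Col3a1 are also among the fibroblast markers below, and Cdh5 and Kdr among the endothelial ones.

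**Figure D4:**
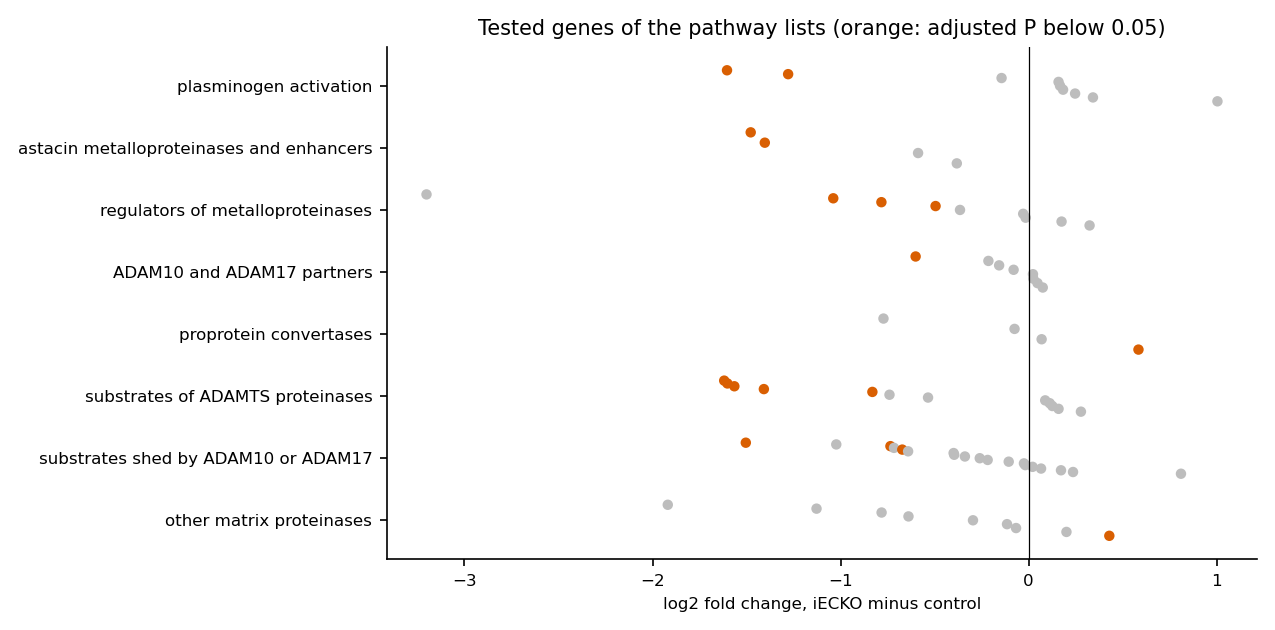
Log2 fold change (Atp6ap2 iECKO minus control, horizontal) of the tested genes in each of 8 lists of genes that work with MMPs, ADAMs and ADAMTSs; each point is 1 gene and orange points passed the test. Orange points are on the left except for Pcsk6 and Prss23, and the partners of ADAM10 and ADAM17 lie close to 0 apart from Tspan17 at -0.60.

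Markers of endothelial cells were abundant. Pecam1, which encodes the CD31 used for the isolation, was at 48730 to 57593 in controls and 55535 to 57759 in Atp6ap2 iECKO libraries. Of 20 endothelial markers 1 fell, the receptor gene Tek (log2 fold change -0.53, adjusted P = 0.0292), and 0 rose, with 3 at an unadjusted P value below 0.05 and a median log2 fold change of 0.00. Without overlap 2 were lower, Tek and Ptprb (log2 fold change -0.675, adjusted P = 0.0527 by limma). Another 2, Emcn and Egfl7, were higher without overlap (log2 fold changes 0.265 and 0.179) and did not pass. Of all tested genes 8.25% were called in limma and 23.9% had an unadjusted P value below 0.05. Without overlap 15.0% of all tested genes were lower and 14.7% higher. The endothelial counts were not above these shares, which also stand beside the counts of the marker lists below. The sums of this list were 614710, 515657 and 471536 in controls and 534118, 498839 and 450827 in Atp6ap2 iECKO libraries, with Cdh5 the most abundant. Markers of other lung cells were present too, and most of those of fibroblasts and of pericytes and smooth muscle cells were lower in Atp6ap2 iECKO libraries.

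Of 18 tested fibroblast markers 13 fell and 0 rose (median log2 fold change -1.48). Not all were lower: Pi16 was at 89.7, 58.4 and 45.0 in controls and at 184, 94.3 and 142 in Atp6ap2 iECKO libraries, higher without overlap (log2 fold change 1.12, adjusted P = 0.0902), and Mfap5 had a log2 fold change of 0.55, and neither passed. The list summed to 98197, 149316 and 132254 in controls and 50517, 38606 and 34738 in Atp6ap2 iECKO libraries. Its most abundant gene, Mfap4, went from 33319, 46331 and 40088 to 15396, 9988 and 8683, and the defining gene Pdgfra from 1329, 1897 and 1996 to 907, 649 and 519. Lum and Scara5 were too low to test, and Dcn, another defining gene, was at 5.71 to 34.4 over the 6 libraries.

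Of 18 tested markers of pericytes and smooth muscle cells 12 fell and 0 rose (median -1.52). The sums were 28144, 40326 and 40672 against 14629, 11784 and 11186, with Postn the most abundant and no marker at 0. The members that fell moved in the same direction as both lists, and for most of them, as for the fibroblast sum, Atp6ap2 iECKO replicate 1 was the highest of its genotype. The part of these cells in the falls of the members was not tested, and in bulk libraries fewer cells of a type and less RNA per cell cannot be told apart.

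Of 17 epithelial markers 0 fell and Scgb1a1 rose, the only one at an unadjusted P value below 0.05, and control replicate 3 held the most epithelial RNA, with a sum of 81619 against 32172 to 46813 in the other 5 libraries. Sftpc was the most abundant of them. In limma 0 of 13 macrophage and monocyte, 8 neutrophil, 7 lymphocyte, 5 platelet and 2 mesothelial markers passed, with 0, 1, 0, 0 and 0 at an unadjusted P value below 0.05. Macrophage and monocyte markers, led by Lyz2, summed to 5132 in Atp6ap2 iECKO replicate 2 and to 7678 to 15850 elsewhere, and this is also the library in which Mmp12 and Mmp13 were lowest. Neutrophil markers, led by Ngp, summed to 394 to 947, lymphocyte markers, led by Ms4a1, to 1251 to 3864, and platelet markers, led by Itga2b, to 391 to 2437. Defining markers at or near 0 were Ly6g of neutrophils and Upk3b, Wt1 and Lrrn4 of mesothelium. The part of these cells in the values of the members was not tested.

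**Figure D5:**
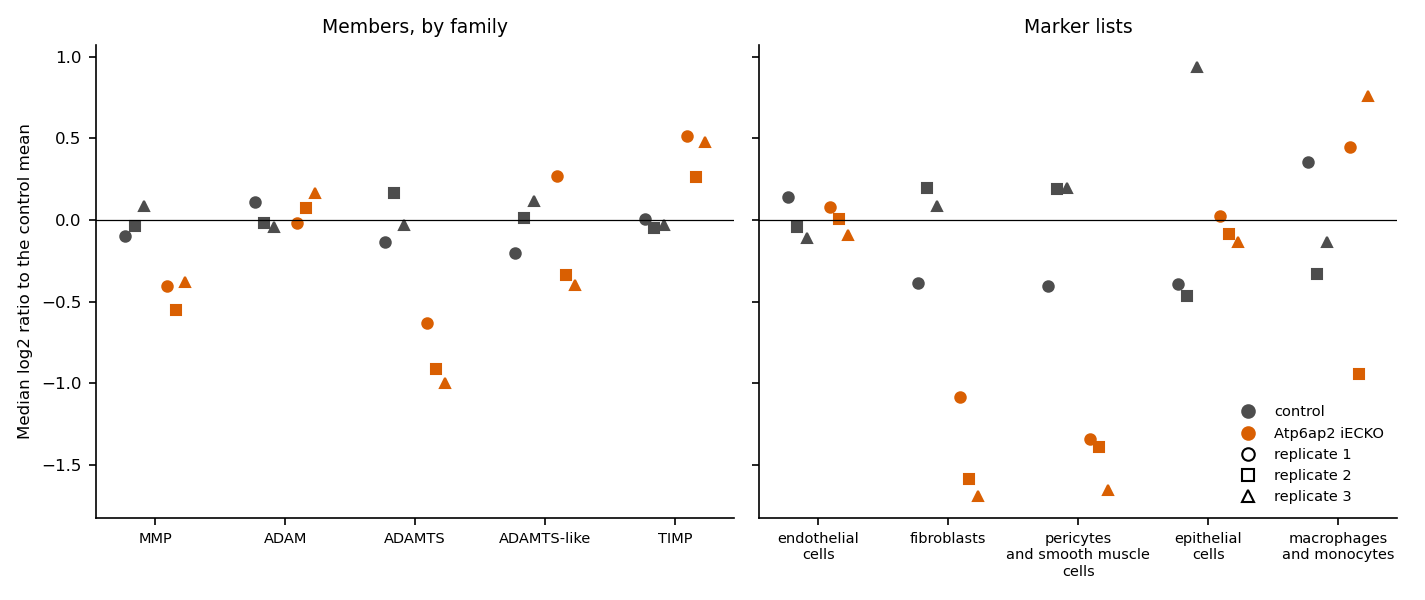
Median over the tested genes of the log2 ratio to the control mean (vertical) in each library, for the 5 families (left) and 5 marker lists (right); grey is control, orange is Atp6ap2 iECKO, and circles, squares and triangles are replicates 1, 2 and 3. ADAMTS medians are -0.63, -0.91 and -0.999 in Atp6ap2 iECKO replicates 1 to 3, fibroblast medians are -1.08, -1.59 and -1.69, and endothelial medians stay between -0.11 and 0.14 in all 6 libraries.

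Within the Xist strata, the 4 genes whose calls held in every fit without 1 library had similar log2 fold changes. As they were picked for holding when libraries were left out, this is no further sign of stability. In the 4 libraries with Xist and the 2 without it the log2 fold changes were -1.24 and -1.42 for Adamts2. They were -1.14 and -0.89 for Adamts12, -1.25 and -1.29 for Adamts17 and -0.97 and -1.09 for Adamtsl3. For Mmp2 they were -0.96 and -1.31. Among the called members the strata lay furthest apart for Adamts15, at -1.33 and -2.33, and for Adamts4, at -1.27 and -0.30. Members that did not pass also differed, such as Mmp13, at -0.52 and -4.36, and Adamtsl5, at 0.29 and -1.32. The smaller stratum has 1 library per genotype and allows no test.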

How the data were processed

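Libraries of polyadenylated RNA were made by the authors with an unstranded TruSeq kit from iLECs of 3 control and 3 Atp6ap2 iECKO samples. The authors aligned reads to mm10 and quantified genes with BaseSpace tools; the annotation and the strand setting are not given in the sources used here. The deposited table holds 1 normalized signal value (called a normalized count) per gene and library. The labels call these values raw, but they are not whole numbers and every library has the same median ratio to the geometric mean, 1.0036. Whole read counts could not be recovered from these values and the reads were not used here, so the depth behind them is unknown. SDs are the spread over 3 libraries, without counting intervals. SEs are those of limma, from a variance pooled over both genotypes and drawn toward a mean-variance trend over all tested genes.

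The log2 of the value plus 1 was tested with limma 3.58.1 (R 4.3.3, mean-variance trend, no covariate) over 14456 genes, two-sided, with Benjamini-Hochberg adjustment and a threshold of 0.05. Fold changes are on this scale and understate changes of low genes. The study calls the samples biological replicates but gives no number of pups for each, so P values measure the spread between these samples. Members, gene lists and tests were chosen with earlier results of these data known. Named were members past the threshold, all TIMPs, the 4 most abundant tested members of each family per kb, members without overlap and with a log2 fold change of at least 1 in size, and, of each list, genes past the threshold or the most abundant marker; further members (such as Mmp9, Mmp11, Adam17 and Adamts7) and list genes that did not pass were added for context after their values had been seen.

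Coordinates and exon lengths are from the GENCODE annotation of GRCm38, which 97.9% of symbols and all 84 members matched, and promoter sequences from RefSeq (GRCm38.p6). Alternatives were other scalings, pseudocounts, filters, variance models and thresholds, a replicate block, an Xist covariate, each library left out and, chosen after seeing the data, the 4 libraries with Xist. Figures were drawn with matplotlib 3.10.9.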

Additional observations from a re-analysis of the deposited data

How the results depend on the processing

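The median log2 fold change of the members stayed between -0.448 and -0.209. With no filter the TIMP median was 0.266 (0.419 with it). The MMP median was -0.226 with no filter and -0.296 in the 4 libraries with Xist, where the ADAMTS-like median was 0.047 and the ADAM median 0.028. The ADAMTS median of -0.943 came to -0.634 with a pseudocount of 10 and -0.714 with no filter. It was -1.136 without control replicate 3 and -1.144 in the 4 libraries with Xist. Numbers of calls moved more. With a covariate for Xist 10 members fell in place of 15 (Adam33, Adamts4, Adamts10, Adamts19 and Timp2 lost their calls) and 767 genes of the table were called, without a mean-variance trend 304, in the 4 libraries with Xist (chosen after seeing the data) 1, and at an adjusted P value below 0.1 1987, against 1193. Leaving out 1 library gave 204 to 989 called genes, 4 to 13 members that fell and 0 to 2 that rose, and a log2 fold change of Atp6ap2 between -1.544 and -0.999; fewer libraries also lower the power of the test. Without the trend 5 members fell and 0 rose, and with the 4 libraries with Xist 0 fell and 0 rose (19 at an unadjusted P value below 0.05). The members that rose numbered 2 after scaling to library totals and with the replicate block (Adam15 was added), 3 with sample quality weights and 3 at an adjusted P value below 0.1. Atp6ap2 missed the threshold without the trend (-1.22) and in the 4 libraries with Xist (-1.19). Adam33 and Adamts10 lost their calls most often, under 11 alternatives each, and Adamts2, Adamts12 and Adamtsl3 under 1, the 4 libraries with Xist. Libraries share replicate numbers 1 to 3, and same-numbered libraries deviated together by correlations of 0.25, 0.11 and 0.08. Their mean was 0.148, above the limit of 0.1 set for pairing, against a mean of -0.074 for other pairs. Every library but the third control correlated best with its own number. The main fit did not pair the libraries, and whether they are paired was not tested. With the replicate block, which does pair them, 1508 genes were called in place of 1193, Adam33 was lost and Adam15 gained. The causes of these differences were not tested. Unknown depth limits statements on low members such as Adam33, Adamts13, Adamts19 and Mmp13.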
